A study of Bos taurus with 8 samples.

Results

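ZNF genes, a numbered series of zinc finger genes, were compared between bovine whole blood exposed to a cowpea leaf phenolic extract (CPE) and untreated blood (CONTROL). The members are all genes whose symbol in the deposited averages table begins with ZNF and a digit. They number 252 of 16966 named genes and have 512 probes on the array. Both groups came from 5 female Holstein Friesian cows that had been fed a probiotic pack for 60 days, so the controls also carry that feeding. Blood was held for 30 min at 37 °C in 5% CO2, with 10 µg/ml of extract in CPE and none in CONTROL. RNA was pooled within each group and hybridised to 4 single-colour arrays per group. The question is which of these transcripts differ in level after contact with the extract. Each p and SE below describes the spread between arrays, which may be technical, since no label ties an array to a cow. Each group lay on a slide of its own, so slide and treatment cannot be told apart in any of these comparisons.

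Most ZNF proteins bind DNA through repeated C2H2 fingers, in which a pair of cysteines and a pair of histidines hold a zinc ion, and successive fingers are joined by a conserved linker. Many also carry a KRAB box, which recruits the scaffold protein TRIM28 and with it chromatin-modifying enzymes, and such factors are known as repressors of transposable elements and genes. Others have left DNA binding behind and act on RNA, ribosomes or the mitotic spindle. Transcripts of this family are generally of low abundance and many are known to turn over quickly.

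The linker between fingers can be read in the probes themselves, and those letters are shown because fingers alike in sequence are shared among family members. The motif searched was CANACNGGNGANAA, where N is any base, on both strands of every 60-base probe, with no overlap with another motif considered. It was found in 39 probes, 0.0893% of 43653, and 14 of them were ZNF probes, 2.73% of the family's 512. Among probes that entered the comparison 3 held it, in ZNF34, ZNF283 and ZNF543, printed 5′ to 3′ with the linker in capitals.
ZNF34: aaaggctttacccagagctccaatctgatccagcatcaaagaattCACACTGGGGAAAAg
ZNF283: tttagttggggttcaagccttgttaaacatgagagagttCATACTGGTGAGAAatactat
ZNF543: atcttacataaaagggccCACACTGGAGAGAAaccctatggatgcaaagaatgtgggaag
Of these genes ZNF34 passed the test, being lower in CPE, and the other two did not.

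The arrays were lit unevenly, and a spot was used only where its surroundings were bright on all 8 arrays, called the lit area, 29.6% of spots. Outside control spots, 26.4% to 49.9% of spots per array were well above background in the scanner software's call, and the 75th percentile of the processed signal ran from 53.4 to 280 units. No spot was saturated. Of the 252 ZNF genes 128 had no probe in the lit area and were not compared. A further 44 had a lit probe that was not well above background on every array. Of those, 23 were below that call on all 8 arrays, 20 passed it on 1 to 6 arrays and 1 on 7 arrays. The remaining 80 genes, 31.7% of the family, were tested through 99 probes. Because a gene had to be above background in all arrays of both groups, transcripts below background in one group are not among the 80. The number of arrays limits the precision of every value.

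An array of each group lay apart from the other 3 in many genes, judged by Dixon's gap rule for groups of 4, which chance meets in about 1 group in 20. CPE array 3 did so in 14 of the 80 ZNF genes, 17.5%, and was the low array in every one of them. Among all genes it lay apart in 16.9%, low in 516 and high in 297. CONTROL array 4 lay apart in 8 ZNF genes, 10.0%, low in 4 and high in 4, against 15.5% of all genes. The other 6 arrays did so in at most 1 ZNF gene each. Differences without CPE array 3 are given for some of the genes named below, and not for all those in which it moved the value most.

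**Figure D1:**
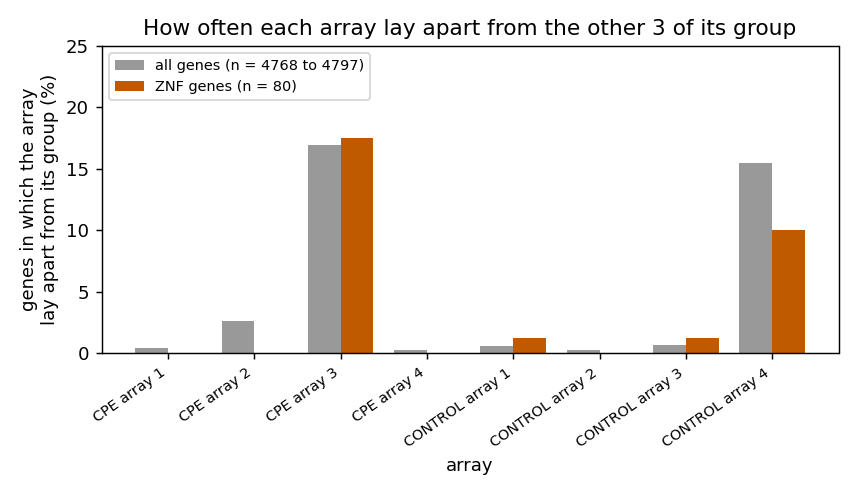
Share of genes, in percent, in which each array lay apart from the other 3 arrays of its group, for all genes with values on the 4 arrays (grey) and the 80 ZNF genes (orange). CPE array 3 reaches 17.5% of ZNF genes and CONTROL array 4 reaches 10.0%, while the other arrays stay at or below 1.25% of ZNF genes.

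Of the 80 ZNF genes 14 were higher in CPE and 23 were lower by limma's moderated test at an adjusted p under 0.05, and 43 passed in neither direction. Values are log2 processed signal relative to each array's 75th percentile, and differences are CPE minus CONTROL. Over all 4813 genes tested, 24.4% were higher and 22.5% lower, 47.0% in all. The ZNF shares were 17.5% higher and 28.75% lower, 46.25% in all, so the total lay close to the background. The arrays of the groups did not overlap in 41 ZNF genes, 12 with CPE on the higher side and 29 on the lower side, where 24.4% and 24.7% of all genes did so (49.1% together). The median difference of the ZNF genes was -0.17, with a range of -1.08 to 1.37, beside 0.03 for all genes. Without CPE array 3 the ZNF median was -0.03 and that of all genes stayed at 0.03. Then 16 ZNF genes were higher and 28 lower, 20% and 35%, beside 28.2% and 26.7% of all genes. With CONTROL array 4 left out as well the ZNF median was -0.10, and 0.05 for all genes. Of 81 ZNF genes 20 were then higher and 28 lower, 24.7% and 34.6%, beside 33.2% and 28.4% of all genes. Changes past 2-fold were called in 2 ZNF genes, 2.50%, and in 7.56% of all genes.

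**Figure D2:**
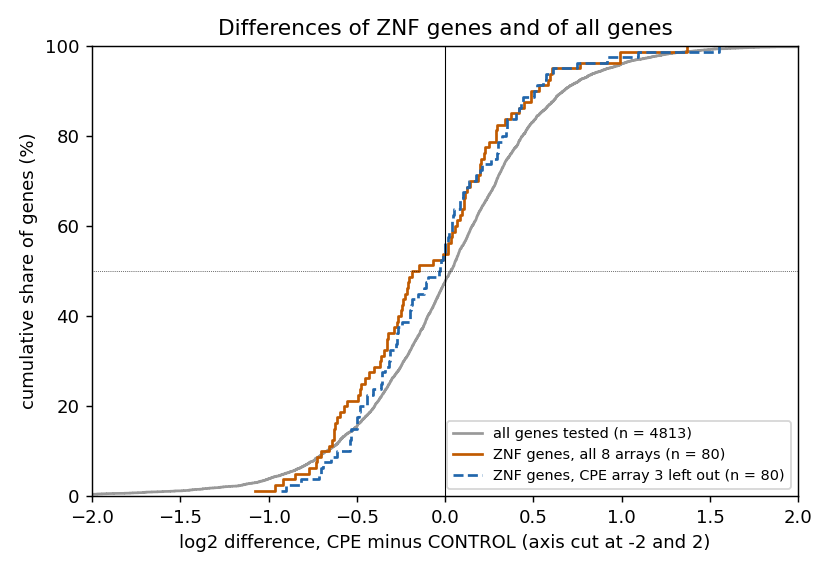
Cumulative share of genes, in percent, against the log2 difference, CPE minus CONTROL, for all 4813 genes (grey), the 80 ZNF genes on all 8 arrays (orange) and the ZNF genes without CPE array 3 (blue, dashed). The ZNF curve crosses 50% at -0.17, moves to -0.03 without that array, and the curve of all genes crosses at 0.03.

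The direction of a difference is relative to the area used. When dim areas were let in, over the whole array, the median of all genes was -1.03 and that of 93 ZNF genes -1.11. Of these ZNF genes 42 were lower and 1 higher, 45.2% and 1.08%, beside 36.7% and 2.07% of 6083 genes. Without any scaling between arrays the median of all genes in the lit area moved to -0.15, and with a local centring of each array it moved to 0.14. The split among called ZNF genes also moved with the scaling. Of the called genes 37.8% were higher in the main comparison, 12.5% without scaling, 2.33% over the whole array and 54.7% after local centring. Among all called genes the corresponding shares were 52.0%, 26.9%, 5.34% and 64.4%.

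The largest rise was in ZNF280D, a relative of the fly suppressor of Hairy wing protein. Its signal was -1.48, -1.63, -2.29 and -1.57 on CPE arrays 1 to 4, and -3.10, -3.34, -3.11 and -2.89 on CONTROL arrays 1 to 4. Every CPE array was above every CONTROL array, and CPE array 3 was the lowest of its group. The difference was 1.37 ± 0.18 (SE, n = 4 per group; adjusted p = 0.000462), 2.58-fold, and it was 1.55 without CPE array 3. Its relative ZNF280B went the other way. ZNF280B stood at -2.76, -2.72, -3.24 and -2.68 in CPE and at -2.15, -2.32, -2.38 and -2.03 in CONTROL. The groups did not overlap, and CPE array 3 was again the lowest. The fall was -0.63 ± 0.14 (adjusted p = 0.00679), and -0.50 without CPE array 3. The first 30 bases of the ZNF280D probe, shown as the sequence behind the family's largest rise, share no run of 18 bases with the probe of another gene.
ZNF280D: tgtgtctgaggaaattgcaagatctaattt

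ZNF8 and ZNF593 rose by nearly the same amount. ZNF8, a KRAB zinc finger protein, read -1.57, -1.10, -1.84 and -1.66 in CPE and -2.23, -2.63, -2.61 and -2.67 in CONTROL. No array of the groups overlapped, and CONTROL array 1 was high beside the other 3 of its group. The difference was 0.99 ± 0.17 (adjusted p = 0.0016), 1.99-fold. ZNF593 is the counterpart of a yeast factor that accompanies the large ribosomal subunit out of the nucleus. It read 1.37, 2.00, 1.88 and 1.40 in CPE and 0.70, 0.67, 1.01 and 0.30 in CONTROL. CPE arrays 2 and 3 were high and arrays 1 and 4 lower, and all were above CONTROL, with a difference of 0.99 ± 0.19 (adjusted p = 0.00297). ZNF140, a KRAB repressor, rose by 0.76 ± 0.14 (adjusted p = 0.00252), from -3.88 to -3.23 over the CONTROL arrays to -2.98 to -2.65 over the CPE arrays. The starts of the ZNF8 and ZNF593 probes are shown for the same reason as that of ZNF280D.
ZNF8: tgtctgtcccatgggataatttctgagtgt
ZNF593: gtacaggggccaagctgggagagactgtgc

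The other rises with groups that did not overlap were smaller. ZNF383, which RefSeq lists under another locus name, rose by 0.60 ± 0.11 (adjusted p = 0.00283). In it CPE array 3 was the high one, at -1.13 against -1.58 to -1.50 on the other CPE arrays, and the rise was 0.50 without that array. ZNF771 rose by 0.42 ± 0.10 (adjusted p = 0.0101) and ZNF189 by 0.37 ± 0.10 (adjusted p = 0.0121), and in ZNF189 CPE array 3 was low, at -3.09 against -2.88 to -2.85 on the other CPE arrays. ZNF829, a KRAB member, rose by 0.29 ± 0.09 (adjusted p = 0.0288), and the gap between its groups was below 0.01, with CPE array 3 and CONTROL array 4 both at -3.07. ZNF134 was called higher by 0.49 ± 0.17 (adjusted p = 0.0427), but its CPE array 3 and array 1, at -2.44 and -2.48, did not clear CONTROL array 4 at -2.44.

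ZNF407 and ZNF295 fell with no array of either group standing apart. ZNF407 is a large nuclear protein known from work on glucose uptake in fat cells. It read -1.48, -1.45, -1.55 and -1.55 in CPE and -0.74, -0.59, -0.55 and -0.47 in CONTROL. All CPE arrays were below all CONTROL arrays. The fall was -0.92 ± 0.08 (adjusted p = 6.17e-05), 1.89-fold, and -0.90 without CPE array 3. ZNF295 is now named ZBTB21, a repressor with a BTB domain for pairing with other proteins. It read -2.15, -2.14, -2.25 and -2.09 in CPE and -1.38, -1.24, -1.17 and -0.999 in CONTROL. The groups were again apart, with a fall of -0.96 ± 0.10 (adjusted p = 9.45e-05). Their probes, given by their first 30 bases, share no run of 18 bases with the probe of another gene.
ZNF407: tgatgaaggatggcgtcactcaggtcatcg
ZNF295: ggaccttcagtaatgcctttattaatgtgg

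ZNF674, a KRAB gene known from X-linked intellectual disability in people, had the largest fall, and it rests on a probe that is not unique. Its signal was 4.69, 4.76, 3.69 and 4.76 in CPE and 5.37, 5.47, 5.57 and 5.79 in CONTROL. The groups did not overlap, and CPE array 3 was more than 1 log2 unit below the other 3. The difference was -1.08 ± 0.24 (adjusted p = 0.00608) and -0.81 without CPE array 3. The first 23 bases of the probe, in capitals, also occur in probes of ACPP, POLH, IL1RL1 and CDNF on one strand or the other, and stretches of 22 and 20 of them in probes of H2B and CHMP1B. A probe of IFT80 shares 21 bases from base 4 on.
ZNF674: TGGGTTGCCATTTCCTTCTCCAAaagtgtt
Which transcript this probe measured was not tested. A stretch of at least 18 bases shared with the probe of another gene was found for 5 of the 80 ZNF genes, 6.25%, and for 2.41% of all genes tested. The others were ZNF266, ZNF33B, ZNF543 and ZNF74. Without these 5 genes 14 members were higher and 20 lower, and the median was -0.01.

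CPE array 3 carried a large share of the next falls. ZNF500, with SCAN and KRAB domains, read -0.66, -0.61, -1.25 and -0.55 in CPE and -0.05, 0.10, -0.01 and 0.30 in CONTROL. It changed by -0.85 ± 0.16 (adjusted p = 0.00277), and by -0.69 without that array. ZNF250, a KRAB gene, read -2.55, -2.40, -3.62 and -2.42 in CPE and -2.05, -1.98, -1.88 and -2.15 in CONTROL. Its difference of -0.73 ± 0.25 (adjusted p = 0.0413) became -0.44 (adjusted p = 0.00295) without CPE array 3. In both genes the CPE arrays stayed below all CONTROL arrays with or without it. ZNF318, a nuclear protein needed by mature B cells to make IgD beside IgM, read -0.91, -0.86, -1.68 and -0.88 in CPE and -0.47, -0.44, -0.46 and -0.37 in CONTROL. It changed by -0.64 ± 0.18 (adjusted p = 0.0167), and by -0.44 ± 0.06 without CPE array 3.

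Further falls with groups apart were seen in KRAB genes and in genes without that box. ZNF713 changed by -0.72 ± 0.10 (adjusted p = 0.000663) and had even CPE arrays, from -3.88 to -3.72. ZNF34, whose probe holds a finger linker, read -2.88, -2.68, -3.18 and -2.85 in CPE and -2.32, -2.16, -2.27 and -2.00 in CONTROL. Its groups did not overlap, and the change was -0.71 ± 0.12 (adjusted p = 0.00177). ZNF613 changed by -0.63 ± 0.11 (adjusted p = 0.0018), and CPE array 3, at -0.35, lay below the other CPE arrays, at -0.02 to 0.05. ZNF800, a regulator of hormone-producing gut cells, changed by -0.62 ± 0.12 (adjusted p = 0.00281). Smaller falls past the threshold were those of ZNF226, ZNF266, ZNF74, ZNF513, ZNF576, ZNF577, ZNF770, ZNF274, ZNF638, ZNF688 and ZNF774, from -0.61 in ZNF226 to -0.27 in ZNF774. The genes nearest to 0 were ZNF177 at -0.01 ± 0.07, ZNF131 at 0.02 ± 0.08 and ZNF133 at 0.02 ± 0.10, and in each of them the groups overlapped.

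**Figure D3:**
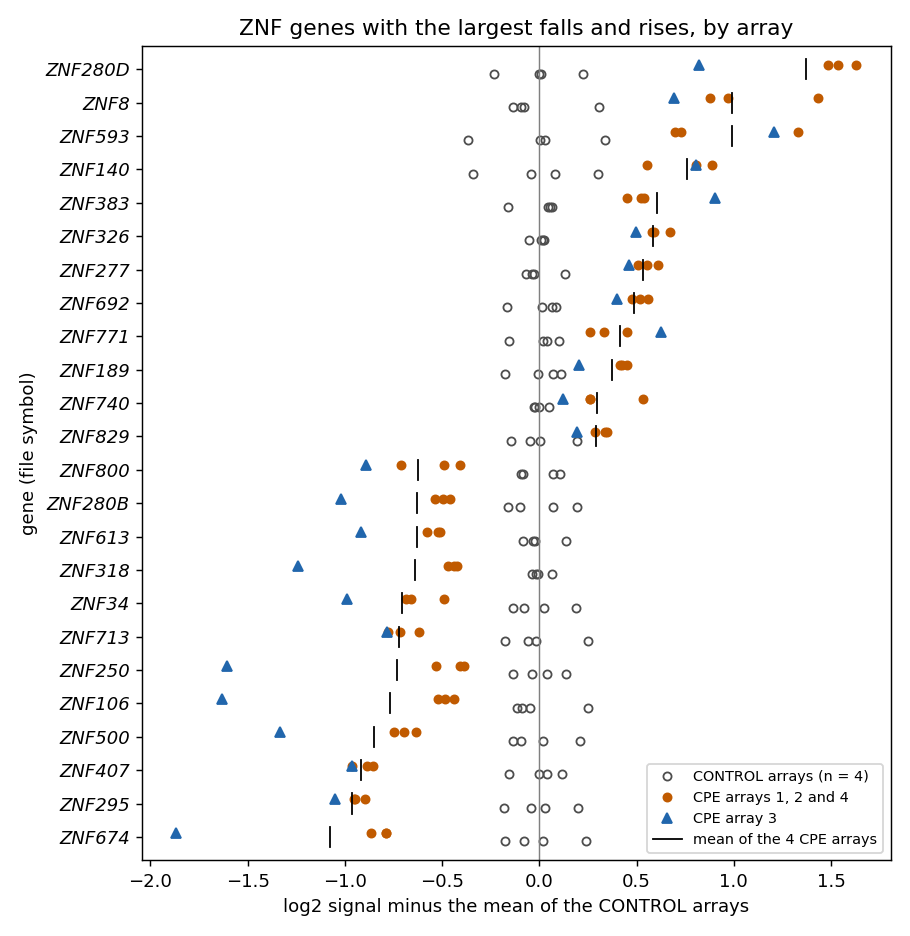
Log2 signal of each array minus the mean of the CONTROL arrays, for the 12 ZNF genes with the largest rises and the 12 with the largest falls among those past the threshold with groups that did not overlap. Open circles are CONTROL arrays, filled circles CPE arrays 1, 2 and 4, blue triangles CPE array 3 and black ticks the mean of the 4 CPE arrays; the triangle lies farthest left in most falls, including ZNF674, ZNF106 and ZNF250.

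Of the 37 called genes 11 lost the call when some single array was left out, and none changed direction. Among the falls, ZNF106 lost it without any one of the CONTROL arrays (difference -0.81 to -0.69, adjusted p up to 0.0915). ZNF250 lost it without CPE array 1 or any one of the CONTROL arrays (-0.80 to -0.69, adjusted p up to 0.0907). ZNF274 did so without CPE array 1 or CONTROL array 1, 3 or 4 (adjusted p up to 0.0622), ZNF513 without CONTROL array 1, 2 or 4 (up to 0.0641) and ZNF770 without CONTROL array 2 or 4 (up to 0.0695). In each of these 5 genes CPE array 3 was the lowest array of its group. ZNF688 lost its call without CPE array 1, 3 or 4 or CONTROL array 2, 3 or 4 (adjusted p up to 0.0842). ZNF774 lost it without CPE array 1, 2 or 4 or CONTROL array 1 or 2 (adjusted p up to 0.728, -0.27 to -0.19), where another probe was the brightest without CPE array 1 or 4. Among the rises, ZNF134 lost the call without CPE array 2 or 4 or CONTROL array 1, 2 or 3 (0.33 to 0.47, adjusted p up to 0.0968), and ZNF829 without CPE array 1 or 4 or the same CONTROL arrays (up to 0.0858). ZNF346 lost it without CPE array 1, 2 or 4 or CONTROL array 1, 2 or 3 (up to 0.0877), and ZNF740 without CPE array 1 or 4 or any one of the CONTROL arrays (up to 0.0812). The reverse was also seen, and called genes in all went from 2260 to 2643 without CPE array 3. Without CPE array 3, 8 genes gained a call: ZNF192, ZNF33B, ZNF618, ZNF639, ZNF75A and ZNF76 on the lower side, at -0.53 to -0.28, and ZNF22 and ZNF507 on the higher side, at 0.30 and 0.29 (adjusted p 0.00315 to 0.0373). Without CPE array 2 the gains were ZNF331 (0.25), ZNF574 (-0.33) and ZNF706 (-0.38), without CPE array 4 ZNF292 (-0.53) and ZNF470 (0.60), and without CONTROL array 4 ZNF397 (0.29). The other 26 called genes, with ZNF280D, ZNF8, ZNF593, ZNF407, ZNF295 and ZNF674 among them, kept the call in all 8 fits.

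Members that act on RNA or ribosomes were described next. Of 15 listed genes 10 were tested, and 5 were higher and 2 lower, with a median of 0.29, beside 24.4% higher and 22.5% lower among all genes. Besides ZNF593, the genes counted as higher were ZNF326, ZNF277, ZNF692 and ZNF346, each by its brightest probe. A second probe of ZNF326 was called lower, at -0.72, and a second probe of ZNF346 was at -0.04, so the count rests on the choice of probe for these genes. ZNF326 belongs to the DBIRD complex, which links transcribing RNA polymerase to splicing. ZNF277 binds a protein of the small ribosomal subunit and read -0.41, -0.35, -0.50 and -0.46 in CPE and -0.998, -1.03, -0.99 and -0.83 in CONTROL. No array overlapped and none stood apart, and the difference was 0.53 ± 0.08 (adjusted p = 0.000825). ZNF692, a protein found in nucleoli, read -2.47, -2.43, -2.59 and -2.51 in CPE and -2.90, -2.97, -2.92 and -3.15 in CONTROL. Its groups were apart as well, by 0.49 ± 0.08 (adjusted p = 0.00183). ZNF346, which binds double-stranded RNA, was higher by 0.34 ± 0.11 (adjusted p = 0.0317), but CPE array 3, at -0.42, lay below CONTROL array 4, at -0.34.

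The falls on this list were in ZNF106 and ZNF638, both splicing-related RNA binders. ZNF106 read 2.90, 2.93, 1.79 and 2.98 in CPE and 3.31, 3.37, 3.33 and 3.67 in CONTROL. CPE array 3 was more than 1 log2 unit below the rest of its group, and the difference of -0.77 ± 0.26 (adjusted p = 0.0349) was -0.48 (adjusted p = 0.00431) without it. ZNF638 changed by -0.33 ± 0.08 (adjusted p = 0.0082). ZNF207, which loads BUB3 onto kinetochores, did not pass by its brightest probe, at -0.29 ± 0.14 (adjusted p = 0.115). That probe stood at -0.16 without CPE array 3. Of its other probes one was called lower, at -0.30 (adjusted p = 0.016), and one was at 0.07. ZNF706 did not pass, at -0.22 ± 0.18, nor did ZNF830, at 0.25 ± 0.16. In ZNF830 CONTROL array 4 was low at -0.34 against 0.26 to 0.32 on the other CONTROL arrays.

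The tested sequence-specific regulators with well-studied target sites did not pass in either direction, where 47.0% of all genes passed. The 6 tested of 12 listed were ZNF76, ZNF131, ZNF148, ZNF350, ZNF384 and ZNF639, with a median of -0.22, and 1 had an unadjusted p under 0.05 in limma. ZNF384, a factor that binds matrix metalloproteinase promoters, read 1.72, 1.75, 0.69 and 1.68 in CPE and 1.86, 1.79, 1.94 and 2.07 in CONTROL. All CPE arrays were below all CONTROL arrays, yet the difference of -0.46 ± 0.23 had an adjusted p of 0.128, and it was -0.20 without CPE array 3. ZNF148, a regulator that binds GC-rich promoters, read -1.75, -1.77, -2.76 and -1.66 in CPE and -1.89, -1.75, -1.87 and -1.60 in CONTROL. Its difference of -0.21 ± 0.23 turned to 0.05 without CPE array 3. ZNF639 stood at -0.25 ± 0.10 (adjusted p = 0.0592), ZNF76 at -0.24 ± 0.11 (adjusted p = 0.0957) and ZNF350, a partner of BRCA1, at 0.08 ± 0.20.

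Of genes that serve in chromatin complexes, 2 of 14 listed were tested and neither passed, nor did either at an unadjusted p under 0.05 in limma. ZNF217, which works with the CoREST complex, differed by 0.29 ± 0.26, with CONTROL array 4 at -1.70 and the other CONTROL arrays at -0.81 to -0.68, and by -0.14 without both arrays that lay apart. ZNF618 differed by -0.21 ± 0.15. Of 15 genes listed for blood and immune cells 4 were tested, and ZNF318 was the one that passed. Over all genes, against which both counts stand, 47.0% passed. ZNF341, which drives expression of STAT3, differed by 0.09 ± 0.13 (adjusted p = 0.588). ZNF331 is described with its probes below.

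KRAB members were set beside the rest of the family by a list drawn up from their human counterparts. Among 37 tested KRAB genes 5 were higher and 12 lower, 13.5% and 32.4%, with a median of -0.07. Among the other 43 ZNF genes 9 were higher and 11 lower, 20.9% and 25.6%, with a median of -0.19. Over all genes 24.4% were higher and 22.5% lower. The totals called, 45.9% of KRAB genes and 46.5% of the others, lay close to the 47.0% of all genes. The difference between these classes was not tested. The KRAB genes that rose were ZNF8, ZNF140, ZNF189, ZNF383 and ZNF829.

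Proteins that KRAB factors recruit were measured for 14 of 36 listed genes, of which 4 were higher and 1 lower, with a median of 0.05, beside the same 24.4% and 22.5% of all genes. TRIM28, the scaffold itself, was listed but was not among the 14. SUMO2, a small modifier that is attached to TRIM28, was 2.10, 2.23, 2.28 and 2.04 in CPE and 1.51, 1.58, 1.496 and 0.57 in CONTROL. CONTROL array 4 was far below its group, and the difference was 0.88 ± 0.21 (adjusted p = 0.00952). CHD4, the remodelling ATPase of the NuRD complex, rose by 0.78 ± 0.10 (adjusted p = 0.000327). DAXX, a chaperone of histone H3.3, was 2.09, 2.09, 2.26 and 2.05 in CPE and 1.41, 1.47, 1.46 and 1.45 in CONTROL. Its groups were wide apart for their spread, by 0.67 ± 0.08 (adjusted p = 0.000193). HDAC2, a histone deacetylase, rose by 0.28 ± 0.09 (adjusted p = 0.0257). MTA1, another NuRD subunit, changed by -0.91 ± 0.21 (adjusted p = 0.00706), although CONTROL array 4, at -2.43, was close to the CPE arrays, at -2.79 to -2.52. SETDB1, the histone methyltransferase of this pathway, differed by -0.16 ± 0.17 and did not pass.

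Where several probes of a gene were tested, they often went different ways. Of 15 such ZNF genes 8 had all probes on the same side of 0, 53.3%, against 606 of 981 among all genes, 61.8%. The median gap between the highest and lowest probe was 0.38 in ZNF genes and 0.39 in all. ZNF326 was called in both directions. The probe that represents it read 2.10, 2.20, 2.02 and 2.11 in CPE and 1.47, 1.54, 1.53 and 1.55 in CONTROL, a difference of 0.58 ± 0.07 (adjusted p = 0.000327). Its other probe read -1.64, -1.69, -2.32 and -1.74 in CPE and -1.26, -1.16, -1.13 and -0.97 in CONTROL, a difference of -0.72 ± 0.15 (adjusted p = 0.00531). The groups did not overlap for either probe, so the array gives no single direction for this gene. ZNF740 split in the same manner, at 0.29 ± 0.10 (adjusted p = 0.0339) and -0.50 ± 0.10 (adjusted p = 0.00354). The starts of the opposed probes are given here, since they measure different stretches under a shared accession.
ZNF326 higher in CPE: cctttatcaagaaacccaagctagcaaaac
ZNF326 lower in CPE: aattcactcattttctctgtgcctgtgtca
ZNF740 higher in CPE: aagccagggcttgtgaatatgaattttcta
ZNF740 lower in CPE: taccagtgtgaacggtgtcaccagtgtttt

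Other genes differed in size rather than in side. The probes of ZNF638 were both lower, at -0.33 ± 0.08 and -0.69 ± 0.13. ZNF33B had differences of -0.36, -0.26 and -1.74, and the third passed the test with an adjusted p of 0.000234 while the others did not. That probe read -3.38, -3.71, -2.90 and -3.94 in CPE and -1.76, -1.76, -1.86 and -1.60 in CONTROL. Here CPE array 3 was the highest of its group, and all CPE arrays stayed below CONTROL. ZNF331, an imprinted KRAB gene in people, had 0.20 ± 0.08 (adjusted p = 0.0756) and 0.63 ± 0.11 (adjusted p = 0.00163). ZNF774, with 13 probes the most of any member, had 3 tested, at -0.27, -0.29 and -0.91, and ZNF576 had -0.48, -0.10 and -0.56. The probes of ZNF192, now named ZKSCAN8, were at -0.40 and -0.44, and the latter, not the brightest, was called lower (adjusted p = 0.0211). Those of ZNF384 were at -0.46 and -0.28, and those of ZNF22 at 0.18 and 0.28. Opposite signs were also seen in ZNF207 (-0.29, -0.30 and 0.07), ZNF283 (-0.07 and 0.11), ZNF346 (0.34 and -0.04), ZNF582 (0.03 and -0.46) and ZNF75D (0.12 and -0.09). Among these, the probes at -0.30 in ZNF207 (adjusted p = 0.016) and -0.46 in ZNF582 (adjusted p = 0.0305) were called lower. Neither was the brightest of its gene. For ZNF75D RefSeq gives the accessions of these probes to different loci.

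**Figure D4:**
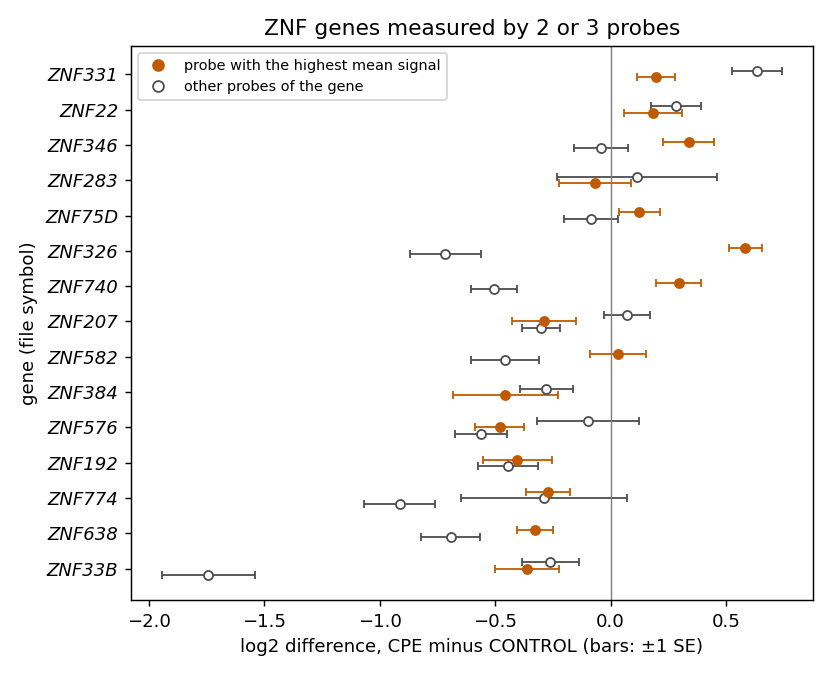
Log2 difference, CPE minus CONTROL, with bars of ±1 SE, for every tested probe of the 15 ZNF genes with 2 or 3 tested probes. Filled points are the probe with the highest mean signal, which represents the gene, and open points the other probes; ZNF326 and ZNF740 have probes on both sides of 0, and a probe of ZNF33B lies at -1.74.

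ZNF genes often sit side by side on the chromosome, so neighbours in the RefSeq annotation were compared. ZNF250 and ZNF34, with 2 coding genes between them, were both lower, at -0.73 and -0.71. ZNF829 and ZNF383, with 3 between them, were both higher, at 0.29 and 0.60, and ZNF527, next in that row, was at 0.20 and did not pass. ZNF274 and ZNF8 have no coding gene between them and went opposite ways, at -0.35 and 0.99. ZNF771 and ZNF688, 5 genes apart, also differed in direction, at 0.42 and -0.33. The remaining pairs compared each held a gene that did not pass, such as ZNF329 beside ZNF274, at -0.15 and -0.35. Neighbours thus included pairs called to the same side, pairs called to opposite sides and pairs not both called.

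In 3 further genes, ZNF555, ZNF565 and ZNF704, the probe was well above background on all CPE arrays and on none of the CONTROL arrays. Their CPE means were -4.11, -3.95 and -4.06 and their CONTROL means -4.71, -4.96 and -4.38, and the lower bound of the ratio was under 1 in each, so no fold is given. No ZNF gene showed the opposite pattern. These genes were picked by that pattern, so the order of their means is not a separate result. How often either pattern occurs among all genes is not given, and no direction of the family is read from it. In each array's own lit area 59.6% to 69.2% of spots were above background on CPE arrays and 57.4% to 59.7% on CONTROL arrays.

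Base composition and position were also set beside the differences. The median GC content of the probes was 41.7% for ZNF genes and 43.3% for all genes, and across the 80 ZNF genes GC and difference correlated at r = -0.0049. Brightness around the spot moved with the difference more clearly. Across genes, which share arrays and are not independent, the difference correlated with the CPE minus CONTROL gap in local brightness at r = 0.25 for ZNF genes and 0.24 for all genes. The median gap was 0.02 for higher ZNF genes, -0.15 for lower ones and -0.06 for the rest. Its part in the calls was not tested.

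Some markers of white cells, platelets and red cells were among the tested genes, and some of those moved with the groups. The lists held 24 T cell, 16 B cell, 20 neutrophil, 14 monocyte, 13 NK cell, 13 platelet and 16 red cell markers. Listed markers beyond the counts below were not tested. Of 16 T cell markers tested 8 were higher in CPE and none lower, with a median of 0.38. The shares over all genes, against which this and the following counts stand, were 24.4% higher and 22.5% lower. Their summed level was 93.5 to 119 times the 75th percentile in CPE and 66.8 to 71.5 in CONTROL. Of 6 NK cell markers 2 were higher and 2 lower, with sums of 34.9 to 39.3 and 18.2 to 21.4, in which GNLY is the brightest gene. The 6 B cell markers had none called by limma, also none at an unadjusted p under 0.05, with sums of 34.6 to 42.2 and 36.4 to 39.7. Of 7 monocyte markers 1 was higher and 3 lower, with sums of 28.6 to 32.2 and 34.7 to 38.7. Of 4 neutrophil markers 1 was higher and 2 lower, with sums of 104 to 118 and 99.6 to 111. The platelet marker tested, PPBP, was higher by 1.47, and of 2 red cell markers HBB did not pass and SLC25A37 was lower. No tested marker was at 0, since each had to be above background. In bulk blood, fewer cells of a type and less RNA per cell cannot be told apart, and the part of cell type markers in the ZNF differences was not tested.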

How the data were processed

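Each of 8 single-colour arrays (4 CPE, 4 CONTROL) gave Cy3 signal intensity per spot. Per the labels and the submitters' processing notes, the authors extracted the deposited intensity values using software Agilent Feature Extraction 10.10.1.1. The authors' deposited averages table holds log2 values per group and was used for gene symbols and as an alternative. Log2 processed signal was taken minus each array's 75th percentile over lit spots, that is, spots whose local 90th percentile of raw signal over 61 neighbours was within 1.5 log2 units of the array's 90th percentile of such values. Control spots (1417 per array) and spots marked as outliers (12 to 73) were left out. Probes lit and well above background on all 8 arrays were tested with limma 3.58.1 in R 4.3.3 (two-sided, Benjamini-Hochberg over 4813 genes, threshold 0.05), a gene being represented by its brightest probe. The fit was checked on simulated data. Slide coincides with group, so no slide term could be fitted.

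Same-numbered arrays correlated at -0.11, -0.18, 0.31 and 0.42 in their deviations, so pairing was unclear, and no block was used in the main fit. The members, lists and rules were chosen with earlier results of these data known. Genes are named as the 12 largest rises and falls past the threshold with separate groups, all genes with several tested probes, up to 3 genes per direction above background in a single group, all members of the role lists, the 3 genes nearest 0, and up to 4 recruited partners per direction. Others named were chosen after their values were seen. RefSeq matched 346 probes by accession, 152 by symbol and 1 by synonym, and 13 not at all. The genome build of the array grid differs from the reference, so no coordinates are given. Protein sequences were not used here, and KRAB genes come from a hand list. Normexp used median foreground and background signals. Alternatives covered normalisation, filters, the lit limit, probe choice, variance, the replicate block and leaving out arrays.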

Additional observations from a re-analysis of the deposited data

Results flagged for a closer look

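Single arrays stood apart from the other 3 of their group by Dixon's gap rule in 18 of 108 groups examined, where chance flags about 1 in 20. Among all genes tested CPE array 3 lay apart in 16.9% and CONTROL array 4 in 15.5%, so such flags are not particular to the genes named here. CPE array 3 was low in 10 of them. Its value was -3.09 in ZNF189 (others -2.88 to -2.85), 3.69 in ZNF674 (4.69 to 4.76), -1.25 in ZNF500 (-0.66 to -0.55), 1.79 in ZNF106 (2.90 to 2.98) and -3.62 in ZNF250 (-2.55 to -2.40). It was -1.68 in ZNF318 (-0.91 to -0.86), -0.35 in ZNF613 (-0.02 to 0.05), -3.24 in ZNF280B (-2.76 to -2.68), 0.69 in ZNF384 (1.68 to 1.75) and -2.76 in ZNF148 (-1.77 to -1.66).

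CONTROL array 4 stood apart in 7 groups, on either side. It was low in ZNF383 at -2.20 (others -1.99 to -1.97), in ZNF217 at -1.70 (-0.81 to -0.68), in ZNF830 at -0.34 (0.26 to 0.32), in SUMO2 at 0.57 (1.496 to 1.58) and in MTA1 at -2.43 (-1.60 to -1.45). It was high in ZNF207 at 2.81 (2.57 to 2.60) and in ZNF346 at -0.34 (-0.67 to -0.62). CONTROL array 1 was high in ZNF8 at -2.23 (-2.67 to -2.61).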

How the results depend on the processing

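Of the 37 called ZNF genes 26 kept their call in all 8 fits that left out an array. With CPE array 3 and CONTROL array 4 both left out, a choice made after seeing the data, 36 kept it. In ZNF774 that call came from another probe, at -0.75. On all 8 arrays that probe was at -0.29 and was not called by limma (adjusted p = 0.53). Leaving out each array gave 10 to 16 higher and 17 to 28 lower, a median of -0.17 to -0.031, 1821 to 2643 called genes in all, and 3 to 4 higher and 1 to 2 lower KRAB partners. ZNF407 kept its call in all 25 alternatives with a test.

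Against 14 higher, 23 lower, a median of -0.17 and 2260 called genes in all, no scaling gave 1, 7, -0.35 and 715, with 0 partners higher. Normexp gave 6, 12, -0.018 and 1253, with 0 partners lower. The whole array gave 1, 42, -1.11 and 2358, with 2 partners higher and 5 lower. Local centring gave 29 higher, a median of 0.036, 3487 in all and 8 partners higher. A minimum change gave 1, 2 and 362, with 0 partners either way, and an adjusted p under 0.01 gave 8, 15 and 1408. Without a filter 3412 genes were called, and with array weights 3423. The median was -0.040 with the filter on at least 1 group, -0.049 with the lit limit at 2, -0.10 without both arrays that lay apart, -0.012 without shared probes (added after seeing the data) and -1.29 in the authors' deposited averages, where the median of all genes was -1.10 and 4670 of 4813 genes were below 0. Partners lower were 2 with the lit limit at 2, with every probe on its own and without both arrays, and 3 with array weights.

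With the replicate number as a block 13 ZNF genes were higher and 22 lower (1195 and 1061 of all genes). Same-numbered arrays correlated at -0.11, -0.18, 0.31 and 0.42 in their deviations, and 2 of 4 correlated best with their own number.

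Apart from the authors' table, the turns listed here cover the genes named by the rules above, a set that leaves out ZNF134. Directions turned over the whole array in ZNF8 -0.13, ZNF593 -0.13, ZNF140 -0.36, ZNF383 -0.52, ZNF326 -0.54, ZNF277 -0.59, ZNF692 -0.64, ZNF771 -0.71, ZNF189 -0.75, ZNF740 -0.83, ZNF829 -0.83, ZNF22 -0.94, ZNF331 -0.93, ZNF346 -0.79, ZNF582 -1.09, ZNF75D -1.001, ZNF131 -1.11, ZNF217 -0.84, ZNF341 -1.03, ZNF350 -1.04, ZNF830 -0.88, ZNF133 -0.61, SUMO2 -0.25, CHD4 -0.34, DAXX -0.45 and HDAC2 -0.84. In the authors' deposited table, among the called ZNF genes, they turned in ZNF8 -0.13, ZNF593 -0.14, ZNF140 -0.37, ZNF383 -0.52, ZNF326 -0.54, ZNF277 -0.60, ZNF692 -0.64, ZNF771 -0.71, ZNF189 -0.75, ZNF740 -0.83, ZNF829 -0.84, ZNF346 -0.79 and ZNF134 -0.64, and 79 of the 80 ZNF genes were below 0 there, uncalled genes above 0 in the lit area included. With the mean over probes they turned in ZNF326 -0.066, ZNF740 -0.10, ZNF283 0.024 and ZNF582 -0.21, and with local centring in ZNF207 0.040, ZNF384 0.051, ZNF638 0.035, ZNF148 0.29, ZNF830 -0.016 and ZNF177 0.089. Without scaling they turned in ZNF582 -0.15, ZNF75D -0.057, ZNF131 -0.16, ZNF341 -0.087, ZNF350 -0.10 and ZNF133 -0.16. Other turns were ZNF582 -0.0048, ZNF131 -0.020 and ZNF133 -0.019 with the lit limit at 2, ZNF131 -0.033 and ZNF148 0.094 with normexp, and ZNF131 -0.0068, ZNF148 0.087, ZNF217 -0.058, ZNF350 -0.18 and ZNF133 -0.00086 with array weights. Without both arrays ZNF131 was -0.010, ZNF148 0.11 and ZNF217 -0.14. Leaving out single arrays gave -0.025 to 0.044 for ZNF131, -0.029 to 0.077 for ZNF133, -0.31 to 0.050 for ZNF148, -0.033 to 0.031 for ZNF177, -0.21 to 0.012 for ZNF283, -0.070 to 0.29 for ZNF350 and -0.064 to 0.13 for ZNF582. Many of these turns came with a shift of all genes alike. The median of all genes was 0.03 in the main fit and -1.03 over the whole array. It was -1.10 in the authors' table and -0.15 without scaling. Turns in those settings are therefore not separate results for each gene. The cause of the turns was not tested. Dim probes limit all of this, since a gene under background on any array was not tested.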

Other observations

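Zinc finger genes outside the ZNF series were measured in the same fit. Of 6 tested genes named ZFP 5 were lower in CPE and none was higher, with a median of -0.60, beside 22.5% lower and 24.4% higher among all genes. With so few genes, picked after their values were seen, this is a description only. ZFP36L2 and ZFP36L1, which bind AU-rich elements and speed the decay of mRNA through fingers of another type, were among them. ZFP36L2 read 2.91, 2.75, 2.86 and 2.76 in CPE and 3.64, 3.61, 3.66 and 3.78 in CONTROL, a difference of -0.85 ± 0.08 (adjusted p = 6.51e-05). ZFP36L1 differed by -0.74 ± 0.11 (adjusted p = 0.000769). ZFP14 was at -0.77 ± 0.18, with CPE array 3 at -3.49 below the others at -2.79 to -2.62. Of 8 ZBTB genes 2 were lower. ZBTB32, a repressor found in activated lymphocytes, differed by -1.17 ± 0.24 (adjusted p = 0.00427), with CPE array 3 at -1.13 and the other CPE arrays near 0, between -0.07 and -0.02. ZBTB4, which binds methylated DNA, differed by -0.62 ± 0.10 (adjusted p = 0.00105) with even arrays. These names were chosen after their values were seen.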
